A study of Mus musculus with 35 samples.

Results

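SRSF6, a serine/arginine-rich (SR) splicing factor, was set against the other six canonical SR proteins in a cross-linking study of mouse P19 cells. The comparison takes the 3 libraries titled SRSF6 as 1 side and the 25 libraries titled SRSF1 to SRSF5 and SRSF7 as the other, out of 31 libraries that have a file of their own. The titles alone chose them, and no measured value entered the choice. P19 is an embryonal carcinoma line with features of early embryo cells. Each line carried a bacterial artificial chromosome (BAC) with a GFP-tagged copy of Srsf6, Srsf1, Srsf2, Srsf3, Srsf4, Srsf5, Srsf7 or Nxf1, or made GFP fused only to a nuclear localization signal (GFP-NLS, the control line), and no further treatment is named. The other side holds 4 SRSF1, 5 SRSF2, 3 SRSF3, 3 SRSF4, 4 SRSF5 and 6 SRSF7 libraries. The 3 NXF1 libraries share the fit and do not enter the contrast, and the 4 GFP-NLS libraries have 1 pooled file. According to the study's methods the lines were clonal and stable. Extra copies of the tagged gene sit on a BAC beside the endogenous gene. Whether all libraries of a protein came from a single line is not stated.

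SR proteins bind RNA through N-terminal RNA recognition motifs and carry a C-terminal domain rich in arginine and serine that is phosphorylated and contacts other splicing factors. They are known for binding exonic enhancers that promote the use of nearby splice sites, and many SR protein genes hold an exon that, when included, sends their own mRNA to decay. SRSF6 (formerly SRp55) is a close paralogue of SRSF4 and SRSF5.

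In individual-nucleotide cross-linking and immunoprecipitation (iCLIP), ultraviolet light joins protein to RNA and reverse transcription stops beside the joined base, so that each cDNA marks a nucleotide. A cDNA at a position that passed the deposited significance threshold is called a tag here, and 0 marks a gene or region without a single listed position. Levels are tags per 1000000 listed tags of the library (CPM). The SRSF6 libraries held 2323026, 1155384 and 2118267 tags, against 13038 to 4459523 in the other six (median 179693). All 3 SRSF6 libraries were therefore rich in tags, while 14 of the other 25 held fewer than 400000. For this reason most results are also given within the 14 libraries of at least 400000 tags (3 SRSF6 and 11 others, at least 1 for each protein), which are called tag-rich below. Where no set is named, log2 changes of genes and regions and their p-values are from the fit of all libraries. According to the file headers all SRSF6 libraries came from runs of the same year and shared lanes with some SRSF2, SRSF5 and SRSF7 libraries. Those of SRSF5 and SRSF7 held fewer than 400000 tags. All SRSF1, SRSF3 and SRSF4 libraries and the tag-rich SRSF7 libraries (replicates 4 and 6) came from runs of a later year. Against these, protein and run year cannot be told apart. The headers of the libraries labelled SRSF2 replicates 2 and 5 name SRSF1 in place of SRSF2. They are the only tag-rich libraries with that label, so counts are also given without these 2. Of the 10 embryonal carcinoma markers, 9 were listed with SRSF6, and their summed level was 777.5 to 1003.9 CPM with SRSF6 and 224.5 to 1876.7 CPM in the other tag-rich libraries. The 15 markers of differentiated cells summed to 1.7 to 4.3 CPM with SRSF6 and 0.0 to 10.3 CPM in those others, and Sox17, Afp, Neurod1, Myod1 and Ptprc were among the 10 at 0 with SRSF6. The study calls the replicates biological without further detail, and the p-values measure how far these libraries scatter.

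SRSF6 tags lay mainly in coding sequence. Coding sequence held 52.2%, 53.2% and 50.7% of SRSF6 tags, against 2.83% to 49.6% (median 18.8%) in the 25 libraries of the other six, and no other library reached the lowest SRSF6 value. The means were 52.0 ± 1.27% with SRSF6 and 22.5 ± 15.04% with the others (SD, n = 3 and 25), a difference of 29.5 percentage points (exact permutation test, two-sided, p = 0.000305, the smallest that this design can give, and 0.00244 after Benjamini-Hochberg adjustment over 8 shares). The number of tags moved with this share: the 14 other libraries with fewer than 400000 tags had 2.83% to 22.7% in coding sequence. Within the tag-rich libraries the 11 others ranged from 14.7% to 49.6% (mean 36.5 ± 9.99%), and the difference of 15.5 points did not pass after adjustment (exact permutation test, two-sided, p = 0.0302, adjusted 0.242). SRSF7 replicates 4 and 6 came nearest to SRSF6 with 49.6% and 49.3%. The pooled GFP-NLS control had 3.58% of its 21591 tags off the mitochondrial genome in coding sequence (95% exact binomial interval 3.34% to 3.84%, counting error only).

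**Figure D1:**
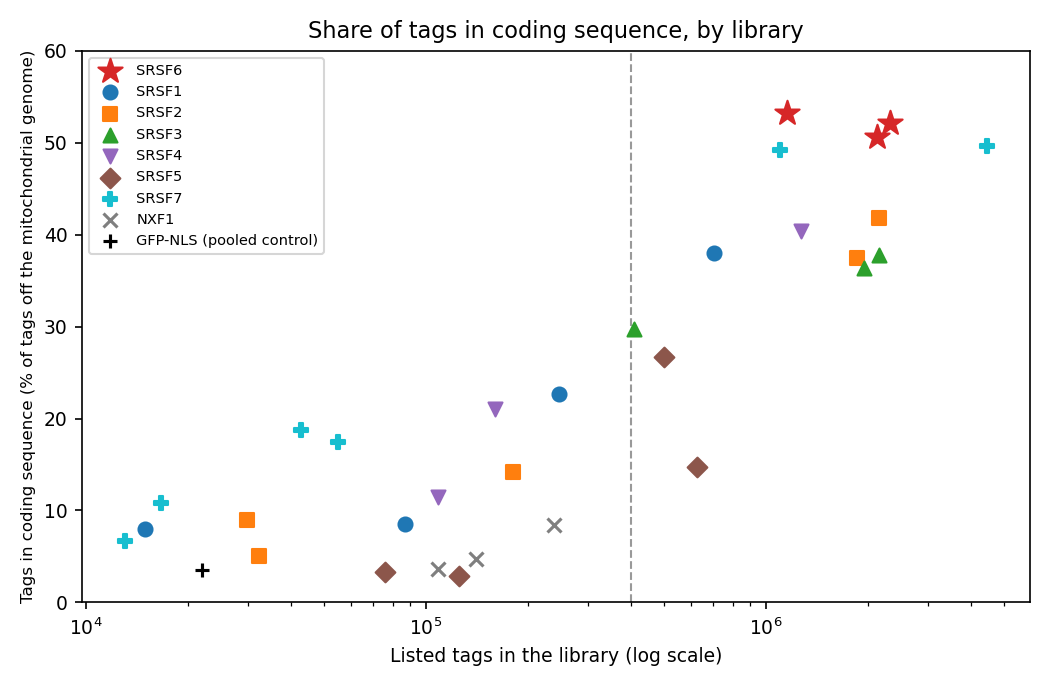
Share of tags in coding sequence (% of tags off the mitochondrial genome, vertical axis) against the number of listed tags (log scale, horizontal axis), 1 point per library, with the pooled GFP-NLS control. The 3 SRSF6 libraries (stars) sit between 50.7% and 53.2%, above every other library, and the dashed line marks 400000 tags.

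The remaining transcript regions separated SRSF6 less clearly. Intergenic positions held 15.2%, 16.2% and 15.7% of SRSF6 tags, against 13.7% to 67.8% (median 34.5%) with the other six, and exons of noncoding genes held 5.69%, 6.37% and 7.08% with SRSF6, against 4.14% to 22.7% (median 14.3%). Neither difference passed (exact permutation tests, two-sided, both adjusted p = 0.116), and the groups overlapped. Introns took 11.4%, 9.18% and 12.5% of SRSF6 tags, within the 8.19% to 34.9% of the others. Within spliced transcripts, first exons held 6.02%, 4.76% and 5.97% of SRSF6 tags, against 4.80% to 24.7% (median 12.1%) with the others, a difference of -7.43 percentage points (exact permutation test, two-sided, p = 0.0214, adjusted 0.137). The 50 nt of exon next to a 5′ splice site held 12.2%, 10.8% and 15.5% of SRSF6 tags, against 9.94% to 26.1% with the others (adjusted p = 0.208, same exact test). For first exons SRSF6 replicate 2 lay just under the lowest of the other six and replicates 1 and 3 inside their range, and for exon ends all 3 lay inside it.

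Single binding regions were compared next, to ask where along transcripts SRSF6 tags were denser. Among 6649 regions tested (deposited clusters of all proteins merged within 30 nt), 1264 were higher with SRSF6 (19.01% of those tested) and 342 lower (5.14%) at an adjusted p under 0.05 (limma voom, Benjamini-Hochberg), beside a median log2 change of 0.37 over all regions. Of the 6649, 611 reached the minimum level of 42.1 CPM in 3 libraries only with the SRSF6 libraries counted, so that the filter itself favoured a rise with SRSF6 there. They held 527 of the 1264 higher calls, and the other 737 regions passed without SRSF6. In coding sequence 895 of 2258 regions were higher and 23 lower, in 3′ UTRs 125 of 597 higher and 6 lower, and between genes 39 of 1669 higher and 177 lower. In introns 96 regions were higher and 66 lower of 953, and in 5′ UTRs 7 higher and 17 lower of 244. Among regions that passed without SRSF6, 487 of 1795 in coding sequence, 83 of 542 in 3′ UTRs, 65 of 916 in introns and 27 of 1654 between genes were higher. In the tag-rich libraries 1644 regions were higher (24.8%) and 556 lower (8.39%). Of these, 559 of the higher and 0 of the lower had passed the filter only through the SRSF6 libraries. Coding sequence again took most of the higher calls, 1063 of 2258, with such regions included. Among the libraries with at least 1000000 tags, 1626 regions were higher (24.6%) and 587 lower (8.88%). All 3 SRSF6 libraries lay above every one of the 25 others at 347 regions (5.22%) and below them at 1 (0.0150%), and above the 11 tag-rich others at 553 (8.32%) and below them at 83 (1.25%). Regions that passed the filter only through the SRSF6 libraries are included in these counts. Without SRSF6 replicate 1, 2 or 3 the fit of all libraries called 821, 673 and 912 regions higher and 127, 103 and 143 lower.

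**Figure D2:**
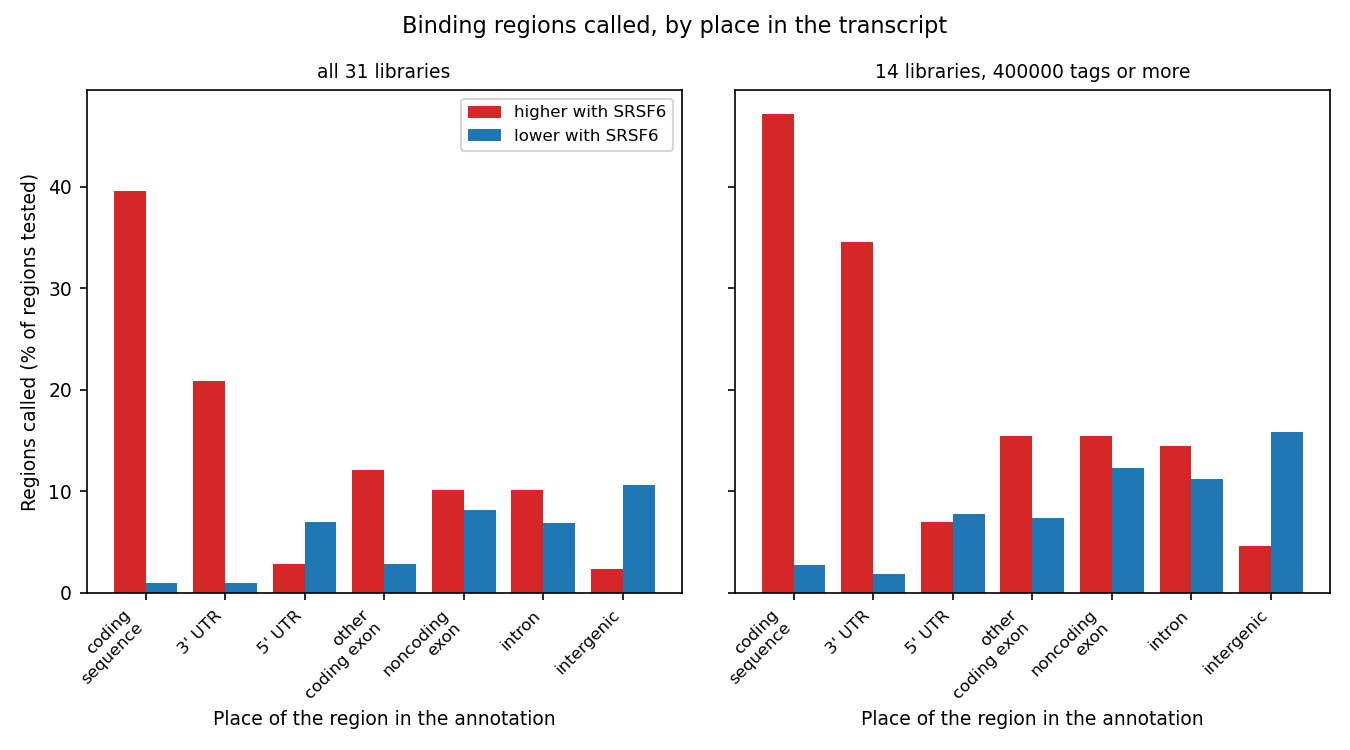
Percentage of tested regions called higher (red) and lower (blue) with SRSF6 than with the other six SR proteins, by place in the annotation, for all 31 libraries (left) and for the 14 with at least 400000 tags (right). Coding sequence had the highest share of higher calls in both panels (39.6% and 47.1%) and intergenic regions the highest share of lower calls (10.6% and 15.8%). Regions that passed the filter only through the SRSF6 libraries are included. Without them 27.1% of coding sequence regions were higher over all libraries.

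Sequences are shown here as a description, from regions with the largest fitted rise and from Srsf6, whose own transcript is described further on. Apart from those of Ddx21 and Srsf6, the regions shown passed the filter only through the SRSF6 libraries, so that the filter favoured their rise. A further Mybl2 intronic region among the highest, at chr2:162898928-162899274, is not shown. Each runs from 15 nt before to 14 nt after the position with the most SRSF6 tags in its region, with the listed base in capitals, on the transcribed strand of mm9. The first Prpf4b position held 22, 15 and 36 tags in SRSF6 replicates 1, 2 and 3, and the Ddx21 position 23, 19 and 19. Each label gives the place of most of the region, not of the stretch. The stretch labelled Srsf6 intron lies inside an exon of an annotated alternative transcript (chr2:162758551-162758818).
Prpf4b coding sequence (chr13:34975736-34975765, plus strand): cccatccaaaagaagCaagtctcaagacca
Prpf4b coding sequence (chr13:34981376-34981405, plus strand): ttaagccttgaagatTttgatgtggaggag
Ddx21 coding sequence (chr10:62061375-62061404, minus strand): aaaccaaagagataaTaacagaggagcctt
Mybl2 intron (chr2:162902836-162902865, plus strand): ggtgcctctccctgtTttgtggctaggaga
Mybl2 intron (chr2:162901872-162901901, plus strand): agaaaaagaaaaccaTcaaactgccacaga
Mtf2 intron (chr5:108507089-108507118, plus strand): ggagataccagtaccAtcaccatgatcacc
Slc9a7 intron (chrX:19828065-19828094, minus strand): gactgtgccttgataTtttccctcttgaag
Srsf6 intron (chr2:162758582-162758611, plus strand): ggctaagatgactgcCtttcctgattggcc
Srsf6 coding sequence (chr2:162759403-162759432, plus strand): aagcaggagaagtgaCttatgcagatgctc

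Prpf4b, a kinase that phosphorylates splicing factors, had the highest SRSF6 levels among the coding regions named. Its region at chr13:34975084-34976372 had 931, 1082 and 939 CPM in SRSF6 libraries, against 0 to 65.5 CPM in the 11 tag-rich others (median 12.9) and 0 in 15 of all 25 others. No other library came within 10-fold of the lowest SRSF6 value. A second coding region of the gene, at chr13:34981371-34981447, had 76.6, 102 and 84.0 CPM with SRSF6 and at most 11.7 CPM in any other library. Both regions passed the filter only through the SRSF6 libraries and are given as a description, with no test. The last part of the transcript moved less: the 3′ UTR region had 873, 1069 and 878 CPM with SRSF6, against 132 to 392 CPM in the tag-rich others. Its log2 change was 3.20 over all libraries (limma voom, adjusted p = 0.0187) and 2.02 in the tag-rich libraries (adjusted p = 2.237e-04). The whole gene reached 2923, 3348 and 3038 CPM with SRSF6, against 175 to 656 CPM in the tag-rich others, of which SRSF4 replicate 2 was highest. Of the SRSF6 tags in Prpf4b 72.5% were in coding sequence, against 53.1% in the other tag-rich libraries.

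Ddx21, a nucleolar RNA helicase needed for ribosomal RNA synthesis and processing, had a similar region. At chr10:62060852-62061645 in its coding sequence SRSF6 libraries had 745, 991 and 637 CPM, against 0 to 162 CPM in the tag-rich others (median 5.64). The log2 change was 6.08 ± 0.88 over all libraries (SE, limma voom, adjusted p = 1.598e-05) and 5.42 in the tag-rich libraries (adjusted p = 2.227e-06). In introns, a region of Mtf2, which encodes a subunit associated with the Polycomb repressive complex, had 68.9, 84.0 and 70.8 CPM with SRSF6, was at 0 in 23 of the 25 others and was at most 11.4 CPM in any. An intronic region of Slc9a7, a sodium/proton exchanger of the Golgi, had 45.2, 45.9 and 82.1 CPM with SRSF6 and at most 6.99 CPM in any other library. These 2 intronic regions, too, passed the filter only through the SRSF6 libraries and are described without a test.

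Whole genes showed the same direction with less certainty. Of 6026 genes tested, 253 had more SRSF6 tags (4.20%) and 41 fewer (0.680%) at an adjusted p under 0.05 (limma voom), while the median log2 change over all genes was 1.04 (0.00 with at least 1000000 tags), so that changes are to be read relative to it. Of the genes tested 156 passed the filter only through the SRSF6 libraries, and they held 52 of the 253 higher calls and 112 of the 1197 in the tag-rich libraries given next. Leaving out SRSF6 replicate 1, 2 or 3 left 1, 5 and 7 genes higher and 1, 1 and 2 lower. In the tag-rich libraries, where the median log2 change was 0.36, 1197 genes were higher (19.9%) and 116 lower (1.93%), among them 253 of the 253 higher and 33 of the 41 lower. With at least 1000000 tags per library 739 were higher (12.3%) and 245 lower (4.07%). Without SRSF6 replicate 1, 2 or 3 the tag-rich libraries gave 593, 826 and 877 genes higher and 42, 60 and 65 lower. All 3 SRSF6 libraries lay above the 25 others at 145 genes (2.41%), above the 11 tag-rich others at 251 (4.17%) and below these at 26 (0.431%). Genes that passed the filter only through the SRSF6 libraries are included in these counts. When both libraries whose headers name another protein were left out, 447 were higher and 76 lower. Of the other single libraries, SRSF4 replicate 2 (490 higher and 69 lower without it), SRSF1 replicate 4 (425 higher) and SRSF1 replicate 1 (62 lower) moved a count by more than 1.5 times. Protein-coding genes supplied 232 of the higher and 20 of the lower calls, and 19 of 77 pseudogenes were called higher, whose tags may belong to near-identical copies.

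Among the genes with the largest rise were several with long coding sequences. Bod1l, which protects stalled replication forks, had 675, 886 and 639 CPM in SRSF6 libraries, against 0 to 411 CPM in the tag-rich others (median 81.3), with SRSF7 replicate 4 highest. Golgb1, the Golgi membrane protein giantin, had 293, 280 and 253 CPM with SRSF6, against 0 to 167 CPM in the tag-rich others (median 16.8). Ahnak, a very large scaffold protein, had 75.8, 66.6 and 54.3 CPM with SRSF6, against 0 to 44.4 CPM, and was at 0 in 6 of the 11. All 3 SRSF6 values of each of these genes lay above the 11 tag-rich others, and 95.1%, 96.0% and 93.8% of their SRSF6 tags were in coding sequence. Their log2 changes over all libraries were 4.40, 4.24 and 4.25 (limma voom, adjusted p = 0.00375, 0.00192 and 0.00725). Utp14b, a ribosome biogenesis gene with a related copy, Utp14a, had 296, 229 and 270 CPM with SRSF6, against 0 to 122 CPM in the tag-rich others. BC005561 (158, 167 and 172 CPM, against 0 to 67.5 CPM) and the X-linked Trap1a, which encodes a tumour antigen (155, 169 and 169 CPM, against 0 to 78.5 CPM), also had no overlap with the tag-rich others. The glutamate transporter gene Slc1a2 was low but listed in all SRSF6 libraries (60.7, 46.7 and 47.7 CPM) and overlapped SRSF3 replicate 3, which had 49.3 CPM. It passed the filter only through the SRSF6 libraries. The other 11 of the 12 genes named as highest, Strc, Mybl2, Agbl1, Prpf4b and Slc9a7 included, kept an adjusted p under 0.05 in the tag-rich libraries whichever SRSF6 replicate was left out (at most 0.00205), whereas over all libraries the largest such value was 0.1295 (Prpf4b).

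Srsf6, the tagged gene, served as a check of the labels. It had 2000, 2229 and 2097 CPM in SRSF6 libraries, against 311 to 893 CPM in the tag-rich others (median 405), and every SRSF6 library lay above all 25 others. The log2 change was 3.17 ± 0.85 (SE, limma voom, adjusted p = 0.0257) and 2.09 in the tag-rich libraries (adjusted p = 1.528e-05). Along the gene (chr2:162757264-162762857, plus strand), intron 2 held 38.9%, 38.6% and 41.9% of SRSF6 tags in the gene, against 0% to 58.2% (median 14.5%) in the tag-rich others. Within it, the exon of an annotated alternative transcript at chr2:162758551-162758818 took 24.9%, 23.8% and 25.2% with SRSF6, against 0% to 30.8% (median 7.83%). Intron 1 had no SRSF6 tag. The coding region at chr2:162759369-162759549 in exon 4 had 260, 314 and 287 CPM with SRSF6, against 0 to 108 CPM in the tag-rich others. The region at chr2:162758406-162759267 lies mostly in intron 2, holds that alternative exon and reaches into exon 3. It had 783, 891 and 894 CPM, against 0 to 433 CPM. Over all libraries the log2 changes of these 2 regions were 3.49 and 3.78 (limma voom, adjusted p = 4.708e-04 and 0.00936). Since the cells carry extra copies of the gene, more template and denser binding cannot be told apart.

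The other SR protein genes were not called in the fit of all libraries. Srsf1 had 1295, 1354 and 1512 CPM with SRSF6, against 513 to 3540 CPM in the tag-rich others, and Srsf2 had 712, 846 and 739 CPM, against 479 to 1168 CPM. In both the SRSF6 values lay inside the range of the others. Srsf7 had 402, 492 and 426 CPM with SRSF6 and Srsf3 289, 251 and 235 CPM. Within the tag-rich set both were lower with SRSF6 than with the others (log2 change -1.20 and -0.82, limma voom, adjusted p = 9.682e-04 and 0.0310), where the highest libraries were those of the proteins' own lines, SRSF7 replicate 6 with 21252 CPM and SRSF3 replicate 1 with 3797 CPM. For Srsf3 the change had the opposite sign over all libraries (0.90, adjusted p = 0.536). Among the SR protein kinase genes Prpf4b was called and Clk1, Clk2, Clk3, Clk4, Srpk1, Srpk2 and Dyrk1a were not (adjusted p = 0.140 to 0.287, limma voom).

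Genes that lie downstream of Srsf6 on the same strand also had high SRSF6 levels. Mybl2, a cell cycle transcription factor gene that starts 117566 nt beyond the end of Srsf6 (chr2:162880423-162910424), had 1131, 1122 and 1127 CPM in SRSF6 libraries, against 39.9 to 142 CPM in the tag-rich others. Its log2 change was 4.96 ± 0.79 over all libraries (SE, limma voom, adjusted p = 6.213e-04) and 3.87 in the tag-rich libraries (adjusted p = 5.918e-08). Introns held 58.6% of the Mybl2 tags with SRSF6 and 16.2% with the tag-rich others. The intronic region at chr2:162902546-162903156 had 150, 163 and 154 CPM with SRSF6, was at 0 in 24 of the 25 others and had 1.54 CPM in the remaining one, SRSF3 replicate 3, and passed the filter only through the SRSF6 libraries, as Ift52 did. Ift52, an intraflagellar transport gene 80233 nt beyond the end of Srsf6, had 171, 104 and 145 CPM with SRSF6, against 0 to 25.1 CPM in the tag-rich others. L3mbtl1 and Sgk2, which lie between, had at most 2.15 CPM with SRSF6. Beside the tagged genes of the other six, some neighbours did the like and others did not: of 14 genes tested within 150000 nt and not overlapping the tagged gene, 7 were higher with the protein of that line and 0 lower (limma voom, each protein against the mean of the remaining SR proteins), and 6 were higher in the tag-rich libraries. In the fits that held these genes the median log2 change over all genes ran from -0.55 (SRSF1) to 0.80 (SRSF3). The share of all genes called in each of those fits was not counted, so 7 of 14 has no background to be read against. The log2 change was 6.69 for Mecr with SRSF4 and 6.95 for Dhx57 with SRSF7 (adjusted p = 2.02e-07 and 1.249e-08), whereas Vezf1 and Dynll2 with SRSF1 (-1.58 and 0.59, adjusted p = 0.270 and 0.650) and Epb4.1 with SRSF4 (0.75, adjusted p = 0.760) were not called. How far the BAC inserts reach beyond Srsf6 is unknown here, so extra gene copies and binding cannot be told apart for Mybl2 and Ift52.

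**Figure D3:**
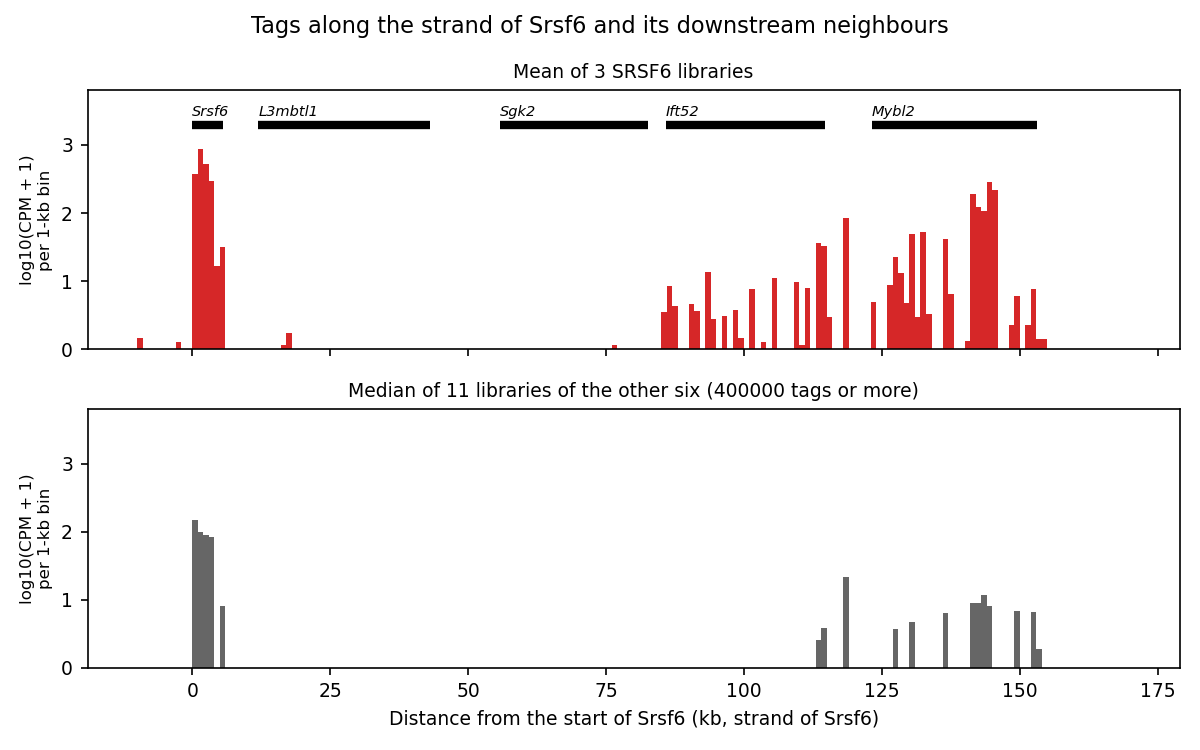
Tags in 1-kb bins along the strand of Srsf6, as log10(CPM + 1), against distance from the start of Srsf6 in kb, for the mean of the 3 SRSF6 libraries (top) and the median of the 11 tag-rich libraries of the other six (bottom). Black bars are genes. Signal with SRSF6 exceeded that of the others over Srsf6, Ift52 and Mybl2, while L3mbtl1 and Sgk2 were nearly empty in both.

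Gene lists were then counted as a description. The lists and their members were chosen with earlier results of these data known, so their counts are no independent support. Of 14 nucleolar protein genes tested, 5 were higher with SRSF6 in the fit of all libraries (Dkc1, Nolc1, Nop14, Utp14a and Tcof1), where 4.20% of all genes were. None was lower there, and the median log2 change was 2.48, beside 1.04 over all genes. Among the tag-rich libraries 12 of the 14 were higher, where 19.9% of all genes were, with a median of 1.19 beside 0.36, and in the libraries with at least 1000000 tags the median was 1.11 beside 0.00. Nolc1, a nucleolar phosphoprotein that chaperones small ribonucleoproteins, had 703, 852 and 455 CPM with SRSF6, against 19.9 to 398 CPM in the tag-rich others. Its log2 change was 3.22 over all libraries (limma voom, adjusted p = 0.0157) and 2.14 in the tag-rich libraries (adjusted p = 8.501e-05). The most abundant member was Ncl, nucleolin, with 3841, 4865 and 3390 CPM with SRSF6, against 363 to 3273 CPM, and it was called in the tag-rich libraries only (log2 change 1.82, adjusted p = 1.758e-05, and 0.0736 over all libraries). Nop14, a ribosome small-subunit assembly factor, had 257, 297 and 230 CPM with SRSF6, against 22.3 to 235 CPM, with SRSF4 replicate 2 highest of the others. Nop56, with 1031, 969 and 1071 CPM against 596 to 1399 CPM, and Polr1b were not called.

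Chromatin genes came next. Of 26 tested, Chd7 and Smarca5 were higher over all libraries, where 4.20% of all genes were. In the tag-rich libraries 17 of 26 were higher, where 19.9% of all genes were. Chd7, a chromatin remodeller, had 319, 308 and 325 CPM with SRSF6, against 9.55 to 335 CPM in the tag-rich others, where SRSF7 replicate 4 overlapped the SRSF6 values. In the tag-rich libraries 12 of 24 core spliceosome genes and 11 of 23 SR-related and speckle genes were higher, and U2af1, which encodes the subunit that reads the 3′ splice site, was lower. Pnn, which encodes the exon junction and speckle protein pinin, had 354, 495 and 341 CPM with SRSF6, against 0 to 311 CPM, and Sart1, a tri-snRNP component, 134, 198 and 160 CPM, against 0 to 102 CPM, both without overlap (adjusted p = 0.0157 and 0.0109 over all libraries, limma voom). Rsrc1 in the speckle list, Prpf3 in the spliceosome list and Hnrnpul2 in the list of heterogeneous nuclear ribonucleoproteins were also called over all libraries. RNA helicase genes had 4 of 22 higher over all libraries (Ddx21, Ddx24, Ddx27 and Dhx38), where 4.20% of all genes were. In the tag-rich libraries 8 of 22 were higher, where 19.9% of all genes were.

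The exon junction and decay list had Rbm8a, Upf2 and Upf3b higher in both sets of libraries, 3 of 11 tested, where 4.20% of all genes were higher over all libraries and 19.9% in the tag-rich libraries. Rbm8a, a core protein of the exon junction complex, had 214, 338 and 133 CPM with SRSF6, against 0 to 298 CPM in the tag-rich others, and overlapped them. Upf3b, a factor of nonsense-mediated decay, had 143, 139 and 170 CPM with SRSF6, against 15.95 to 83.0 CPM, and did not. Translation factor genes had Eef1d and Eif5b higher over all libraries and 6 of 20 in the tag-rich libraries, where the share of all genes was again 19.9%. Ribosomal protein genes had 0 of 54 called over all libraries and 2 in the tag-rich libraries (Rpl14 and Rps25), with a median log2 change of -0.06 there. No gene of the list of mRNA 3′ end processing or of mRNA export was called over all libraries, and 2 of 15 and 1 of 10 were higher in the tag-rich libraries. The pluripotency genes Sox2 and Dppa4 were higher in both sets of libraries. Sox2 had 181, 145 and 250 CPM with SRSF6, against 0 to 156 CPM, and Dppa4 66.7, 56.3 and 94.4 CPM, against 0 to 110 CPM. In the mitochondrial genome mt-Nd6, a complex I subunit gene, was called higher in both sets (25.8, 22.5 and 59.0 CPM with SRSF6, against 0 to 95.4 CPM). Its mean in the tag-rich SRSF3 libraries was higher still (71.4 CPM), and the tag-rich SRSF1, SRSF4 and SRSF5 libraries were at 0. The call thus set SRSF6 against a mean that included lines at 0. With at least 1000000 tags it did not pass (limma voom, adjusted p = 0.0655). Of 5 genes known from other work as splicing targets of SRSF6, only Insr and Bcl2l11 passed the filter on low values, and neither was called.

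**Figure D4:**
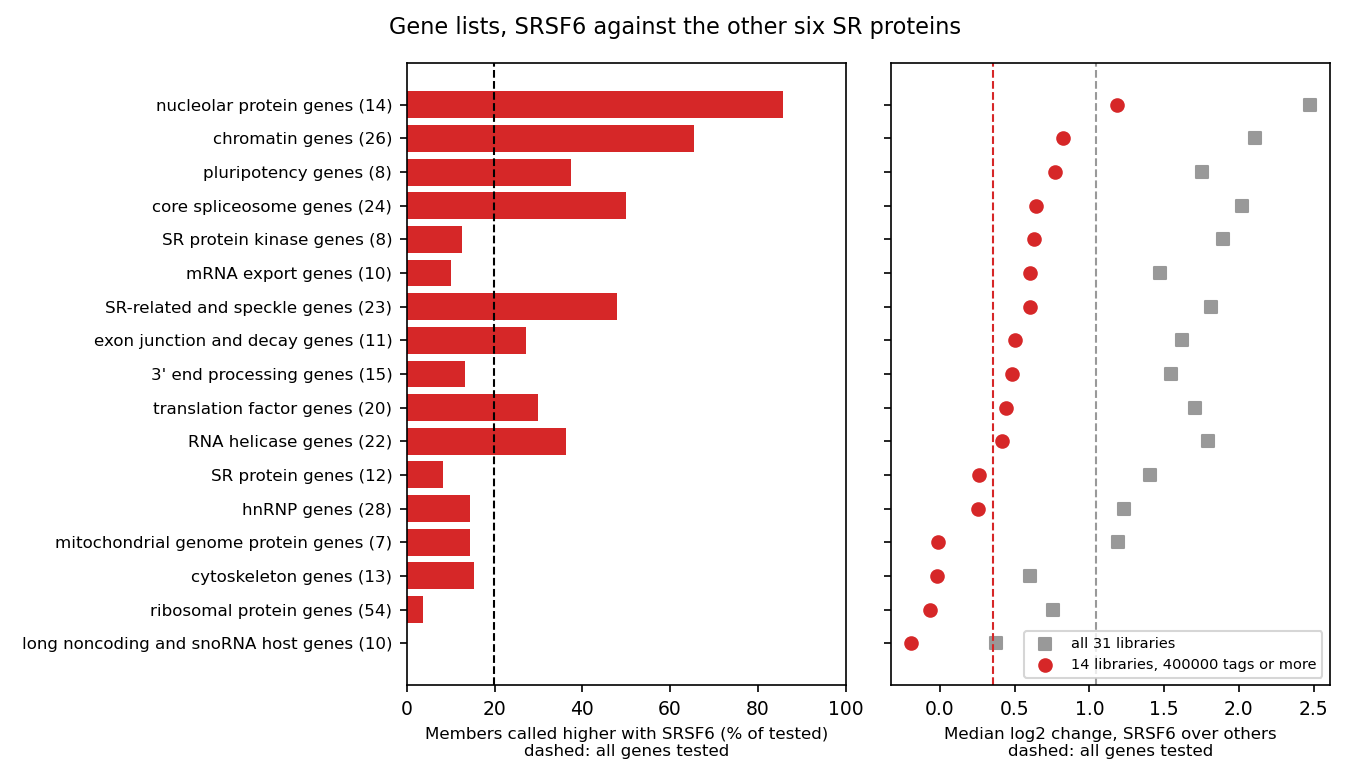
Left, percentage of tested members of each gene list called higher with SRSF6 in the 14 libraries with at least 400000 tags (number tested in brackets, dashed line at 19.9%, all genes tested). Right, median log2 change of each list over all 31 libraries (grey) and the 14 (red), with dashed lines at 1.04 and 0.36 for all genes. Nucleolar protein genes lead in both panels, and ribosomal protein and long noncoding genes are at the low end. The lists were chosen with earlier results of these data known.

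A few genes were listed in some lines and at 0 in others. Strc, which encodes stereocilin of inner ear hair cells, had 1818, 1497 and 926 CPM in SRSF6 libraries and was higher still in the SRSF3 libraries (2705 to 3531 CPM), reached 1801 CPM in SRSF4 replicate 2, and was at 0 in the tag-rich libraries of SRSF1, SRSF5 and SRSF7 and in the library labelled SRSF2 replicate 2. Agbl1, a carboxypeptidase gene, followed the same lines, with 424, 295 and 158 CPM with SRSF6, 653 to 1178 CPM with SRSF3, 153 CPM in SRSF4 replicate 2 and 0 in the tag-rich SRSF2, SRSF5 and SRSF7 libraries. Each gene was at 0 in 6 of the 11 tag-rich others, and the calls (limma voom, adjusted p = 0.00865 and 0.00642) set SRSF6 against the mean of lines with and without a listed position. By a rule set after the values were seen (over 50 CPM in each SRSF6 library and at 0 in at least 6 of the 11 others), only Ahnak and the predicted gene Gm15773 joined them.

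The long noncoding RNAs Meg3, Rian and Mirg, which are expressed together from an imprinted cluster on chromosome 12, showed the reverse. Meg3 had 0, 0 and 0.944 CPM in SRSF6 libraries, against 78.0 to 1092 CPM in the tag-rich SRSF1, SRSF2, SRSF4, SRSF5 and SRSF7 libraries, and was at 0 in all 3 SRSF3 libraries. The 3 libraries labelled SRSF2 whose headers also name SRSF2 (replicates 1, 3 and 4) also had no tag in Meg3, Rian or Mirg, and had 93.3, 202 and 985 CPM in Strc. Rian had 1.72, 0 and 0 CPM with SRSF6, against 105 to 643 CPM in the same libraries of the others and 0 with SRSF3. Mirg was listed at 0 in all 3 SRSF6 libraries, as it was with SRSF3, against 23.7 to 316 CPM in the remaining tag-rich libraries. The pooled GFP-NLS control had 3 tags in Meg3. All 3 RNAs were lower with SRSF6 over all libraries and in the tag-rich libraries (limma voom, adjusted p = 0.0401, 0.0245 and 0.0158 for Meg3, Rian and Mirg over all libraries). The RNA levels of each line were not measured in these files, so less RNA in a clonal line and less binding cannot be told apart.

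Slc38a4, an imprinted amino acid transporter gene, had 2.58, 2.60 and 2.36 CPM with SRSF6. The tag-rich others had 25.3 to 409 CPM (median 164), without overlap, whereas 8 of all 25 others were at 0. The log2 change was -4.26 ± 0.79 over all libraries (SE, limma voom, adjusted p = 0.00261) and -5.17 in the tag-rich libraries (adjusted p = 8.501e-05). Ctse, the gene of cathepsin E, was at 0 in all SRSF6 libraries and listed in all 11 tag-rich others (1.57 to 31.9 CPM). All those tags lay in 1 intronic region of 8 nt (chr1:133539082-133539089), so the values describe that site rather than the whole gene. With at least 1000000 tags the gene did not pass (limma voom, adjusted p = 0.0659). Igf2r, an imprinted receptor gene, had 10.8, 13.8 and 8.03 CPM with SRSF6, all intronic, against 8.72 to 197 CPM, and overlapped. Fh1 (fumarate hydratase), Aloxe3, Zbtb20 and Tmed10 were likewise called over all libraries and in the tag-rich libraries, whereas Tmem108 and Dach2 were called over all libraries only. In the tag-rich libraries Meg3, Rian, Mirg, Ctse and Slc38a4 stayed under an adjusted p of 0.05 whichever SRSF6 replicate was left out, and the other 7 of the 12 named as lowest did not. Among single regions, a coding region of Calr, the calreticulin gene, at chr8:87368799-87368924 was at 0 with SRSF6 and had up to 44.1 CPM in the tag-rich others (adjusted p = 0.00230).

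**Figure D5:**
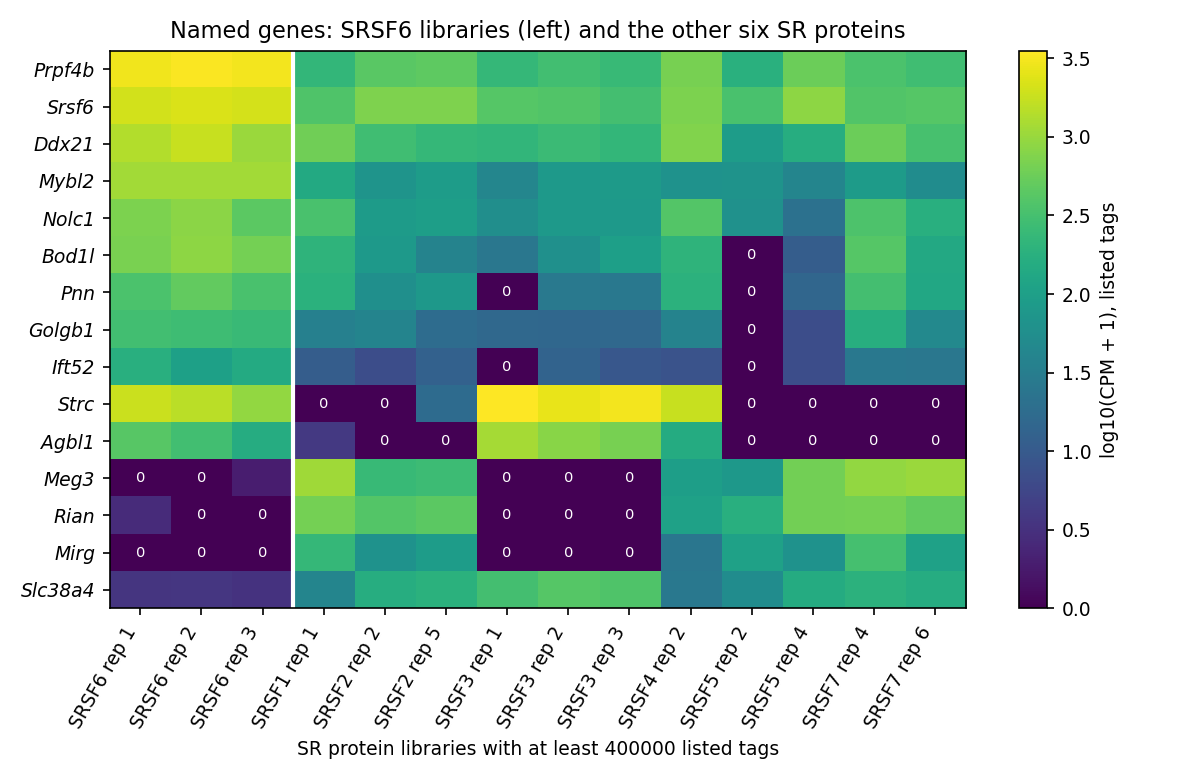
Level of 15 named genes as log10(CPM + 1) of listed tags (colour) in the 14 libraries with at least 400000 tags, with the 3 SRSF6 libraries left of the white line and the other six SR proteins right of it. A printed 0 marks no listed tag. Prpf4b, Srsf6, Ddx21 and Mybl2 are brightest with SRSF6, Strc and Agbl1 are shared with SRSF3 and SRSF4, and Meg3, Rian and Mirg are dark with SRSF6 and SRSF3.

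Sequence around the listed positions was read last, in windows of 31 nt set against flanking windows 31 to 61 nt away in the same library. The values are log2 ratios of the share of windows to the share of flanks that hold a 5-mer. The 5-mers most enriched at SRSF6 positions held UC or CG steps, such as UUCGA (0.55, 0.55 and 0.56 in SRSF6 libraries, against 0.52 to 1.01 in the tag-rich others), UCAUC (0.44, 0.54 and 0.48, against 0.20 to 1.10) and CAUCC (0.37, 0.46 and 0.43, against 0.22 to 0.78). These enrichments were shared with the other six and the values overlapped. Over all libraries 0 5-mers were higher and 0 lower with SRSF6 at an adjusted p under 0.05 (limma-trend), with 77 at an unadjusted p under 0.05. In coding sequence alone 0 passed and 0 had an unadjusted p under 0.05.

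Among the tag-rich libraries 167 5-mers were higher with SRSF6 (16.3%) and 106 lower (10.4%), and the 5-mers named from here on were taken from that fit after the values were seen. The largest rise was that of AGAUG, with 0.23, 0.23 and 0.30 in SRSF6 libraries, against -0.39 to 0.27 in the others (difference 0.24 ± 0.038, SE, adjusted p = 0.00247), where SRSF4 replicate 2 was highest. AAGAA had 0.010, 0.040 and 0.064 with SRSF6, against -0.41 to 0.074 (median -0.24), and ACCCC 0.024, 0.072 and 0.029, against -0.31 to 0.010 without overlap. The largest fall was that of GUCGU, with 0.20, 0.19 and 0.14 with SRSF6, against 0.14 to 0.91 (difference -0.27 ± 0.042, adjusted p = 0.00208). Of the 167 higher, 49.1% had no U, against 23.7% of all 5-mers, and of the 106 lower 67.9% held CG, against 23.8% of all. Within coding sequence of the tag-rich libraries 146 were higher (14.3%) and 210 lower (20.5%), and AGAUG (0.16, adjusted p = 0.0020) and GUCGU (-0.34, adjusted p = 5.24e-04) kept their direction.

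Base composition showed the same tendency without passing. A made up 26.4%, 27.3% and 26.7% of the bases in SRSF6 windows, against 22.3% to 27.2% (median 24.3%) with the other six (exact permutation test, two-sided, p = 0.00885, adjusted 0.0708), and U made up 25.7%, 25.5% and 25.7% with SRSF6, against 23.1% to 33.8% (adjusted p = 0.294). In the tag-rich others A made up 22.5% to 26.7%. At the listed position itself U was the most common base, with 44.1%, 43.9% and 44.3% with SRSF6, inside the 37.2% to 50.7% of the others.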

How the data were processed

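The deposited tag files list single positions on mm9 with a signed whole number, another kind of value than a plain read count: per the file headers it is the number of cDNAs (unique cross-link events) and its sign is the strand. The authors kept positions with a false discovery rate under 0.05 over 100 permutations within 15 nt, library by library, so totals are not depths. CASAVA 1.4 and the mm9 build are listed in the submitters' notes, which with the other sources used here name no aligner.

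From these, tags were assigned on the stated strand to GENCODE vM1 genes of the same build and to merged deposited clusters. Features without a tag in a subset of libraries were left out of its fit. The SRSF6 cluster file holds replicate 3 alone, and the regions cover 88.2%, 92.2% and 100.0% of the tags of SRSF6 replicates 1, 2 and 3. limma 3.58.1 (R 4.3.3) voom was fitted on all 31 libraries with library totals as size, for features with at least 42.1 CPM (10 tags in the median library) in 3 libraries and 15 tags in all. The contrast was SRSF6 minus the mean of the other six proteins, p-values were adjusted by Benjamini-Hochberg over all features tested, and 0.05 was the threshold for a call. 5-mers were tested by limma-trend, shares by exact permutation over libraries. Alternatives were other scalings, filters and subsets of libraries, each library left out and a block for the replicate number. The scripts were tested on simulated data. Named genes are, of those called over all libraries and on the same side at an unadjusted p under 0.05 in the tag-rich libraries, the 12 highest and 12 lowest without near-identical copies, the SR protein genes and each called list member. Regions (8 and 8) followed the same rule, and other named items were chosen after values were seen. Members and lists were chosen with earlier results of these data known. Tags of near-identical copies are uncertain.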

Additional observations from a re-analysis of the deposited data

How the results depend on the processing

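The number of calls depended on which libraries were compared and how they were scaled, and the cause was not tested. The counts of genes higher and lower with SRSF6 (253 and 41 over all libraries) were 1197 and 116 in libraries with at least 400000 tags, 739 and 245 with at least 1000000, 998 and 75 with at least 400000 and none labelled SRSF2, 779 and 132 within the run year of the SRSF6 libraries, and 447 and 76 without the libraries labelled SRSF2 replicates 2 and 5. Scaling to protein-coding totals gave 141 and 108, limma-trend 39 and 1, no CPM filter 22 and 21, and trimmed-mean scaling 27 higher. For regions (1264 and 342) the counts were 829 and 765 with protein-coding totals and 784 and 15 with limma-trend, 2326 were higher without the CPM filter, and 556, 587 and 559 were lower with at least 400000 tags, with at least 1000000 tags and within the run year. Of the 5-mers, 167 were higher and 106 lower with at least 400000 tags, 146 and 210 in coding sequence of those libraries, and 368 and 260 with at least 1000000 tags.

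Without SRSF6 replicate 1, 2 or 3 the libraries with at least 400000 tags gave 593, 826 and 877 genes higher and 42, 60 and 65 lower. With 1 library left out at a time, in either set, 1 to 877 genes were higher and 1 to 69 lower (limma). For regions 673 to 1513 were higher and 103 to 398 lower. When the library left out was not one of SRSF6, 186 to 490 genes were higher and 34 to 69 lower, and 1199 to 1375 regions were higher and 306 to 398 lower. For 5-mers only SRSF6 libraries were left out in turn, from the fit of all libraries alone, and 0 passed (limma-trend). The 5-mer calls of the tag-rich libraries were not tested in this way. The coding sequence share differed by 28.95 to 30.21 percentage points over all libraries. The difference was 15.5 points with at least 400000 tags, 10.2 with at least 1000000 and 13.4 with at least 400000 and each position counted once (exact permutation tests, adjusted p = 0.242, 0.133 and 0.154). The share in noncoding exons changed sign to 0.17 points with at least 1000000 tags.

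The sign of some SR protein genes uncalled over all libraries changed. In libraries with at least 400000 tags, Srsf1 had a log2 change of -0.076 (-0.025, -0.0625 and -0.14 without SRSF6 replicate 1, 2 or 3), Srsf3 -0.82 (-0.91, -0.80 and -0.74), Srsf4 -0.15 (-0.23, -0.20 and -0.014) and Srsf5 -0.35 (-0.36, -0.38 and -0.30). Without the label SRSF2 these libraries gave -0.79 for Srsf3 and -0.18 for Srsf4. With at least 1000000 tags the change was -1.28 for Srsf3, -0.57 for Srsf4, -0.26 for Srsf5 and -0.092 for Tra2b, and with protein-coding totals -0.031 for Srsf3 and -0.19 for Srsf4. Of 77 named genes and regions, 70 kept direction and side of the threshold with at least 400000 tags, and 2 no longer passed.

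Replicate numbers did not pair the libraries: the deviations of 18 same-numbered pairs correlated at -0.077 to 0.106, and 1 of 3 SRSF6 libraries was closest to its own number. With a replicate block 345 genes were higher and 72 lower, 1239 regions were higher and 511 lower, and 0 5-mers passed (limma-trend, 112 at an unadjusted p under 0.05). Files list only positions past a threshold set library by library, so 0 in a library with few tags is not absence of binding.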

Other observations

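Small nuclear RNA genes were called in the lower direction alone. Of 94 small nuclear RNA genes tested, which encode the RNA parts of the spliceosome, 6 were lower (6.38%) and 0 higher with SRSF6 over all libraries (limma voom). Of all genes 0.680% were lower and 4.20% higher there. In the libraries with at least 400000 tags 13 of the 94 were lower (13.8%) and 0 higher, where 1.93% of all genes were lower and 19.9% higher. The median log2 change of the small nuclear RNA genes was -0.97 in those libraries, beside 0.36 over all genes. Many of these genes are near-identical copies, so which copy carried the tags is uncertain. Small nucleolar RNA genes, which guide the modification of ribosomal RNA, had 10 higher (6.99%) and 16 lower (11.2%) of 143 in those libraries. Their share of higher calls was thus below the 19.9% of all genes and their share of lower calls above the 1.93%. Over all libraries 2 of the 143 small nucleolar RNA genes were higher (1.4%) and 5 lower (3.5%). Mitochondrial transfer RNA genes had 7 higher of 13 (53.8%) in the libraries with at least 400000 tags and 0 of 13 over all libraries.

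Malat1, an abundant nuclear long noncoding RNA, was called in both directions at single regions, chosen here after their values were seen. At chr19:5802347-5802372 SRSF6 libraries had 80.9, 79.6 and 122 CPM, against 0 to 61.8 CPM in the 11 others with at least 400000 tags, and at chr19:5796705-5796880 they had 0, 0 and 80.7 CPM, against 15.1 to 1119 CPM. The third SRSF6 library thus departed from the first pair at the second of these regions.

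As a description, the rank correlation of tags over 61258 regions, after thinning each library to 10000 tags, was 0.143 to 0.194 between SRSF6 libraries, 0.116 to 0.200 between SRSF6 and SRSF4 libraries, 0.025 to 0.172 with SRSF1 and 0.024 to 0.122 with SRSF3. It was 0.057 to 0.161 with SRSF2, 0.077 to 0.118 with SRSF5, 0.054 to 0.132 with SRSF7 and 0.119 to 0.158 with NXF1. The points share genes and abundance. The ranges for SRSF4, SRSF1, SRSF2 and NXF1 overlapped that between SRSF6 libraries, and those for SRSF3, SRSF5 and SRSF7 lay below it.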
